A study of Mus musculus with 14 samples.

Results

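The genes described here are the mouse kinesins and their named partners, the centromere proteins and a small group of spindle genes. They were taken from the array annotation: every symbol that starts with Kif or Cenp followed by a number or a letter, plus Aurka, Aurkb, Bub1, Bub1b, Ndc80, Nuf2, Plk1, Tpx2 and Troap, each read from the probe set whose mean signal was highest. This gave 73 of the 18194 genes measured. By their known roles they fall into 13 mitotic kinesins, 30 other kinesins, 17 genes of centromere chromatin and the constitutive centromere network, 6 of the outer kinetochore and spindle checkpoint, 5 spindle kinases and spindle proteins, and 2 other genes that carry a Cenp name.

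RNA of primordial germ cells, the precursors of eggs and sperm, was measured on 14 Affymetrix arrays at embryonic days (E) 9.5 to 13.5, with 2 arrays labelled as biological replicates in each of 7 groups. The groups from E10.5 on came from BDF1 mothers mated to males with the stella-EGFP transgene on a mixed B6/CBA background, and EGFP-positive cells were sorted from trypsin-treated genital ridges at E10.5 and E11.5, and by sex at the later stages E12.5 and E13.5. The E9.5 arrays were from an earlier study and are labelled C57BL/6, with another RNA kit and no transgene or sort described in the sources used here, and the E9.5, E10.5 and E11.5 cells carry no sex label. All samples started from 5 ng of RNA, the equivalent of 500 cells, amplified with 12 PCR cycles from E10.5 on and with 22 cycles at E9.5. The number of embryos behind each array is not given, so p-values measure only the spread between these samples.

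A dividing cell builds a spindle of microtubules that catches each chromosome at its kinetochore, a protein complex that sits on centromeric chromatin. Kinesins are motors that walk along microtubules or take them apart. Some of them work in the spindle and at division, while others carry vesicles, organelles and the cargo of cilia in cells at any stage. Many spindle and kinetochore genes are transcribed periodically, with peaks in G2 and mitosis. At about the last stages studied here, female germ cells begin to stop mitosis and enter meiotic prophase, and male germ cells begin to arrest in the cell cycle.

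The promoters are shown first, because the mitotic and the other kinesins differed in the letters found there. Many genes with peak transcription in G2 and mitosis carry the cell cycle homology region (CHR, searched here as TTTGAA or TTCGAA on both strands) and CCAAT boxes (searched as CCAAT on both strands). Matches were counted separately and can share letters, as a CHR and a CCAAT box do in the Cenpw window. In windows of 300 bases, from 250 before to 50 after each annotated start (RefSeq, GRCm38.p6), 63 of the 73 genes had an entry. Of the 21 windows of mitotic kinesins, outer kinetochore genes and spindle genes, 17 (81.0%) held a CHR, 15 (71.4%) a CCAAT box and 13 (61.9%) both. Over all 32851 promoter windows the shares were 19.2%, 37.4% and 7.52%. The other kinesins lay near these shares, with a CHR in 4 of 27 windows (14.8%) and a CCAAT box in 11 (40.7%). The windows of the centromere network held CCAAT boxes in 15 of 20 (75.0%) and a CHR in 5 (25%).

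The CHR lay close to the start in most of these mitotic genes: 15 of the 21 windows (71.4%) held it within 50 bases of the start, against 5.31% of all windows. Below are 30 bases around the match, with the CHR in capitals (TTCAAA is TTTGAA read on the other strand), for genes whose values are described later. These genes were chosen after the matches were known.
Kif18b, chr11:102925104-102925133, minus strand: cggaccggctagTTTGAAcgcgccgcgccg
Cenpf, chr1:189688067-189688096, minus strand: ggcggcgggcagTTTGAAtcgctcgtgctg
Kif23, chr9:61946780-61946809, minus strand: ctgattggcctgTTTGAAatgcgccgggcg
Aurka, chr2:172370521-172370550, minus strand: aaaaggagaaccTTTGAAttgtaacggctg
Plk1, chr7:122159453-122159482, plus strand: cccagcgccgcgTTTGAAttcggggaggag
Bub1, chr2:127831828-127831857, minus strand: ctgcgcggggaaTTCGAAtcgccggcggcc
Ndc80, chr17:71526811-71526840, minus strand: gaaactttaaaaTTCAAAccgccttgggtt
Kif11, chr19:37376351-37376380, plus strand: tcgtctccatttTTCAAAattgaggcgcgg
The 8 stretches were all taken from within 50 bases of the start, and the match of Kif2c, which lies farther away, is not among them. A match of letters is a description and shows neither binding nor regulation, and Tpx2, Aurkb, Kif20a, Kif13b, Kif21b and Kifc3 had no window in the table.

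The promoters of 4 genes with these roles are given, chosen by the number of comparisons in which they passed and then, among genes with 1 such comparison, by the size of the change, which placed Kif18b and Cenpf before Aurka. They are shown as the 250 bases before the start, with CHR and CCAAT letters (ATTGG on the other strand) in capitals.
Troap, chr15:99074723-99074972, plus strand: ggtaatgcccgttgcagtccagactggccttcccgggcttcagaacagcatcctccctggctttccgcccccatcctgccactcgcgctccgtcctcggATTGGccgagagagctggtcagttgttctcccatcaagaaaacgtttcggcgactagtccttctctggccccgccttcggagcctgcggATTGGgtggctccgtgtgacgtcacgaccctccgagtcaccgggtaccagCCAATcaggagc
Bub1b, chr2:118597961-118598210, plus strand: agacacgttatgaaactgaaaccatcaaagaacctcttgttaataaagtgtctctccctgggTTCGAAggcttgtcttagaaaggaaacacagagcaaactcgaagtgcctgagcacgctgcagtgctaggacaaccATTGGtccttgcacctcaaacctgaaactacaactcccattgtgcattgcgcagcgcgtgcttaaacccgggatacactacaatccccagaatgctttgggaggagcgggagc
Kif18b, chr11:102925125-102925374, minus strand: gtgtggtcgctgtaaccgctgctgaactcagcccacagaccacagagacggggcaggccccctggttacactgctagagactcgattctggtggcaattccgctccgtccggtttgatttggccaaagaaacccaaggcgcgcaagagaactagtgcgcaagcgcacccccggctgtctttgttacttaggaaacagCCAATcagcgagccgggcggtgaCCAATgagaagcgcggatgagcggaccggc
Cenpf, chr1:189688087-189688336, minus strand: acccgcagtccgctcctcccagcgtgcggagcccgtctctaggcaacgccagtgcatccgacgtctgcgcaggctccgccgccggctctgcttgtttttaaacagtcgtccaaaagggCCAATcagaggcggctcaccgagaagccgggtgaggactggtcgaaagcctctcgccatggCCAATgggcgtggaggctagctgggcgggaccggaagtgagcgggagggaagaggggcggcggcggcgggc
Troap held 3 CCAAT boxes and no CHR in its window, while the CHR of Kif18b and Cenpf starts just after the annotated start and is seen in the short stretches above.

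**Figure D1:**
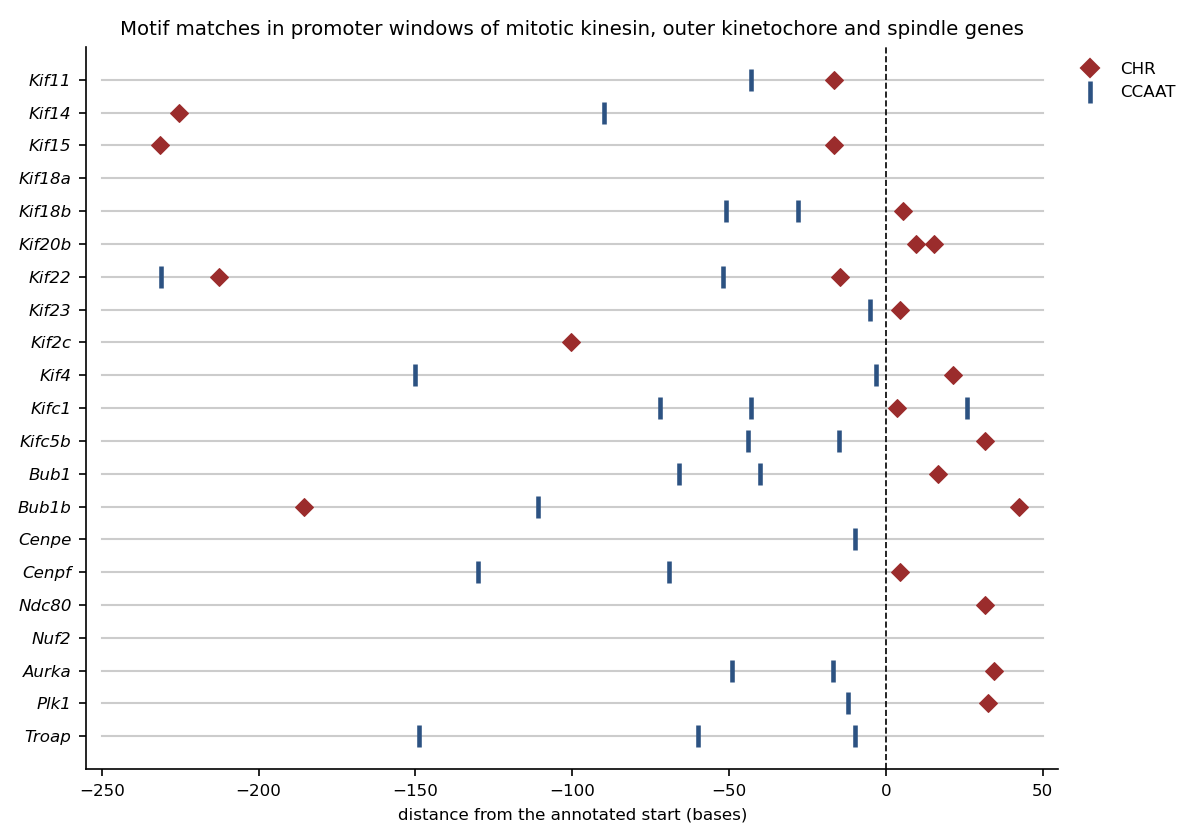
Positions of CHR (diamonds) and CCAAT (bars) matches on either strand in the promoter windows of the 21 mitotic kinesin, outer kinetochore and spindle genes with an entry; the horizontal axis is the distance from the annotated start in bases (dashed line at 0). In 15 of the 21 windows a CHR lies within 50 bases of the start.

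Values were log2 signals as deposited, so 1 unit is a 2-fold difference, and signals of different probe sets are not compared with each other. The table median was 4.72, and lower signals are called dim. Differences were tested with limma over all 18194 genes, and a gene passed with a Benjamini-Hochberg adjusted p under 0.05. Array medians ranged from 4.66 to 4.80. The replicates at E10.5 correlated least (r = 0.961 across genes, which are not independent replicates). The Gapdh probe sets at the 3′ and 5′ ends of the transcript differed by 3.16 in E13.5 male replicate 2 and 3.09 in E13.5 female replicate 2, and by at most 2.53 elsewhere. All 7 germ cell markers measured were above the table median from E10.5 on, with a summed log2 signal of 14.89 to 15.45. The blood markers summed to 6.93 to 8.98 in E13.5 cells and 11.31 to 11.73 at E10.5. The gonadal somatic markers summed to 8.33 to 9.04 in E13.5 cells and 9.60 to 9.99 at E10.5, and the endothelial markers to 7.57 to 7.90 in E13.5 cells and 8.79 to 9.15 at E10.5. Above the table median were 2 of 8 blood markers in either sex at E13.5, against 5 of 8 at E10.5, and the globin Hba-a1 was listed at 0 on all E13.5 arrays. Of 11 gonadal somatic markers, 7 were above it in males at E13.5 and 6 in females at E13.5, against 7 at E10.5. Of 7 endothelial markers, 2 were above it in males at E13.5 and 4 in females at E13.5, against 6 at E10.5. The part of these markers, and of the Gapdh difference, in the results at E13.5 was not tested.

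Of the 73 genes, 57 were above the table median on every array, and 5 were dim in every group: the spindle motor Kif15, Kif2b, a relative of Kif2c, and Kif9, Kif28 and Kifc5b. The other 11 crossed the median, among them Troap, Kif14, Cenpb, Kif26b and Kif27. Over the 7 groups, the difference between a gene's highest and lowest group mean had a median of 0.97 log2 units for the 73 genes, against 1.09 for all genes. It was under 1 in 38 of the 73 (52.1%), against 44.6% of all genes. Among genes above the median on every array, these shares were 61.4% of 57 and 56.0% of 10318. By role it was under 1 in 12 of 17 genes of the centromere network, in 6 of 6 outer kinetochore genes and in 10 of 30 other kinesins.

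None of the genes passed the test between the unsexed stages E10.5 and E11.5. At E11.5 against E10.5, 0 of the 73 passed in limma, and 4 had an unadjusted p under 0.05. Of all genes, 0.0769% passed and 7.07% had an unadjusted p under 0.05. The 95% interval of the change lay within 1 log2 unit on either side of 0 for 50 of the 73, against 8707 of all 18194 genes.

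Over the whole sorted series, at E13.5 against E10.5, 5 of the 73 genes passed in males (6.85%; 4 higher and 1 lower) and 11 in females (15.1%; 6 higher and 5 lower). Of all genes, 12.7% passed in males (7.45% higher and 5.27% lower) and 17.8% in females (11.4% higher and 6.40% lower), so the 73 genes did not pass more often than genes at large. The male and the female comparison share the E10.5 arrays. The median log2 change of the 73 genes was 0.12 in males and 0.17 in females, against 0.07 and 0.08 over all genes.

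Of the 13 mitotic kinesins, 10 were above the table median on every array, and 0 passed in either sex in limma at E13.5 against E10.5, where 12.7% of all genes passed in males and 17.8% in females. Of these 13, 3 had an unadjusted p under 0.05 in males and 2 in females, against 25% and 28.9% of all genes. Kif22, a chromokinesin that pushes chromosome arms from the spindle poles, read 12.10 and 12.01 in E13.5 males and 12.01 and 11.97 in E13.5 females, against 12.16 and 11.95 at E10.5. Its change was 0.00 (95% interval −0.33 to 0.33) in males and −0.07 (−0.40 to 0.27) in females. Its arrays overlapped between the groups, and both intervals exclude a 2-fold change. Kif20a, a motor of the central spindle needed for cytokinesis, read 11.63 and 11.34 in E13.5 males and 11.37 and 11.10 in E13.5 females, against 11.18 and 11.50 at E10.5. Its change of 0.15 (−0.26 to 0.55) in males and −0.11 (−0.51 to 0.30) in females was again inside 1 log2 unit. Kif11, the motor that pushes spindle poles apart, read 8.56 and 7.39 on the E10.5 arrays, so its replicates were far apart.

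Kif4, a chromokinesin encoded on the X chromosome, came near to passing in females. It read 9.67 and 9.41 in E13.5 males and 10.59 and 10.42 in E13.5 females, against 9.03 and 10.09 at E10.5. The female arrays lay above both E10.5 arrays and the male arrays between them, and the female change of 0.95 had an adjusted p of 0.0613 in limma. Kifc1, a motor that walks toward microtubule minus ends, and Kifc5b are near-identical copies, so their signals may be mixed and are not described further.

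Of the 17 genes of the centromere network, 0 passed in either sex in limma at E13.5 against E10.5 (3 with an unadjusted p under 0.05 in males and 2 in females), against the same 12.7% and 17.8% of all genes. The 95% interval lay within 1 log2 unit on either side of 0 for 10 of the 17 in males and 11 in females. Of all 18194 genes this held for 6037 in males and 5573 in females. Cenpa, the histone H3 variant that marks centromeric nucleosomes, read 12.03 and 11.76 in E13.5 males and 12.17 and 11.84 in E13.5 females, against 12.53 and 12.17 at E10.5. All E13.5 arrays lay at or below the lower E10.5 array, by less than 1 log2 unit between group means. Cenpw, a histone-fold protein of the inner kinetochore, read 11.38 and 8.91 on the E10.5 arrays and Cenpx, which has the same fold, 9.74 and 8.13. E10.5 replicate 2 was thus the low array in both, and their difference from E10.5 rests on it. Cenpb, which binds a short box in centromeric satellite repeats, read 4.71 and 4.49 in E13.5 males and 3.87 and 3.37 in E13.5 females, against 5.88 and 4.23 at E10.5. Its arrays ran through the dim range, and it did not pass.

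Outer kinetochore genes, which hold the microtubule ends, were measured brightly in every group. At E13.5 against E10.5, 1 of 6 passed in males (higher) and 1 in females (lower) in limma, against 12.7% and 17.8% of all genes. In males 4 had an unadjusted p under 0.05, all higher, and in females 1 higher and 1 lower, against 25% and 28.9% of all genes. The change was above 0 in 5 of 6 in males and 4 of 6 in females, with medians of 0.50 and 0.20. Bub1, the checkpoint kinase, read 12.23 and 12.26 in E13.5 males and 12.49 and 12.01 in E13.5 females, against 11.97 and 12.06 at E10.5. Its change was 0.23 (95% interval −0.14 to 0.60) in males and 0.24 (−0.13 to 0.60) in females. Ndc80 and Nuf2, partners in the complex that binds microtubules, differed from E10.5 by 0.51 and 0.50 in males and by 0.17 and −0.13 in females, and neither passed.

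Cenpf, a large protein of the kinetochore and nuclear matrix that accumulates in G2, was the outer kinetochore gene that passed as higher in males. It read 11.53 and 12.17 at E9.5, 11.79 and 12.27 at E10.5, 11.96 and 12.24 at E11.5, 12.15 and 12.41 in males at E12.5, 12.35 and 12.28 in females at E12.5, 12.90 and 12.67 in males at E13.5, and 12.61 and 12.32 in females at E13.5. Both E13.5 male arrays lay above every other array. The rise at E13.5 in males against E10.5 was 0.76 (SE 0.20, adjusted p = 0.0316 in limma). A further Cenpf probe set above the table median differed by −0.54 in the same comparison, so the probe sets of the gene disagree in direction. The call was lost when E10.5 replicate 1 or either E13.5 male array was left out, and under quantile normalization (adjusted p = 0.0521).

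Of the 5 spindle kinases and spindle proteins, 0 passed in males in limma at E13.5 against E10.5 (1 with an unadjusted p under 0.05), and 3 fell in females, against 12.7% and 17.8% of all genes. Troap, a protein of spindle microtubules and poles, had the largest change of the 73 genes. It read 7.46 and 7.25 at E9.5, 7.50 and 7.03 at E10.5, 7.40 and 6.99 at E11.5, 7.03 and 6.47 in males at E12.5, 6.74 and 6.73 in females at E12.5, 6.33 and 7.12 in males at E13.5, and 3.71 and 3.80 in females at E13.5. The E13.5 females alone were dim, at nearly equal values on both arrays, and all other arrays lay at 6.33 or above. Troap fell by 3.51 in E13.5 females against E10.5 (SE 0.32, adjusted p = 6.8e-05), and by 2.98 against E12.5 females (adjusted p = 0.00416). The male change from E10.5 was −0.54 and did not pass. As the female signal was dim, the fold is a difference of signal and not of transcript number, and the other Troap probe set was dim in every group.

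Aurkb, the kinase of the chromosomal passenger complex that corrects wrong attachments, also fell in females. It read 10.97 and 11.51 at E9.5, 11.09 and 11.53 at E10.5, 10.88 and 11.25 at E11.5, 10.79 and 10.82 in males at E12.5, 10.68 and 10.69 in females at E12.5, 10.97 and 10.69 in males at E13.5, and 10.26 and 9.87 in females at E13.5. The E13.5 female arrays were the lowest of the 14. The change against E10.5 was −1.25 (SE 0.22, adjusted p = 0.00246), and the other Aurkb probe set gave −1.35. In males the change was −0.48 and did not pass.

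Aurka, the spindle pole kinase, read 11.63 and 11.80 at E9.5, 11.64 and 11.76 at E10.5, 11.74 and 11.76 at E11.5, 11.52 and 11.41 in males at E12.5, 11.41 and 11.36 in females at E12.5, 11.65 and 11.27 in males at E13.5, and 11.02 and 10.89 in females at E13.5. Again the E13.5 female arrays were the lowest, and the change from E10.5 was −0.75 (SE 0.16, adjusted p = 0.00935). The other Aurka probe set was dim and differed by 0.31, and with the mean of both the change was −0.22 (adjusted p = 0.581). Bub1b, which holds back anaphase until all kinetochores are attached, is a checkpoint gene that moved alike. It read 10.94 and 11.51 at E9.5, 11.52 and 11.84 at E10.5, 11.56 and 11.78 at E11.5, 11.52 and 11.36 in males at E12.5, 11.45 and 11.29 in females at E12.5, 11.73 and 11.59 in males at E13.5, and 11.09 and 10.80 in females at E13.5. Its change in females was −0.74 (SE 0.18, adjusted p = 0.0163), that of another bright Bub1b probe set −0.75, and that of males −0.02. The female call was lost without E10.5 replicate 2 or E13.5 female replicate 2, and with the mean of all its probe sets, 1 of them dim (adjusted p = 0.0578).

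Other spindle genes did not pass. Plk1, the kinase of mitotic entry and spindle assembly, read 11.03 and 10.72 in E13.5 males and 11.02 and 10.84 in E13.5 females, against 11.04 and 10.63 at E10.5, a change of 0.04 (95% interval −0.57 to 0.65) in males and 0.10 (−0.51 to 0.70) in females. Tpx2, which activates Aurka on the spindle, read 11.01 and 10.88 in E13.5 males and 11.34 and 11.18 in E13.5 females, against 10.94 and 10.95 at E10.5. Its change of 0.32 (−0.03 to 0.66) in females went the other way from Aurka and did not pass.

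**Figure D2:**
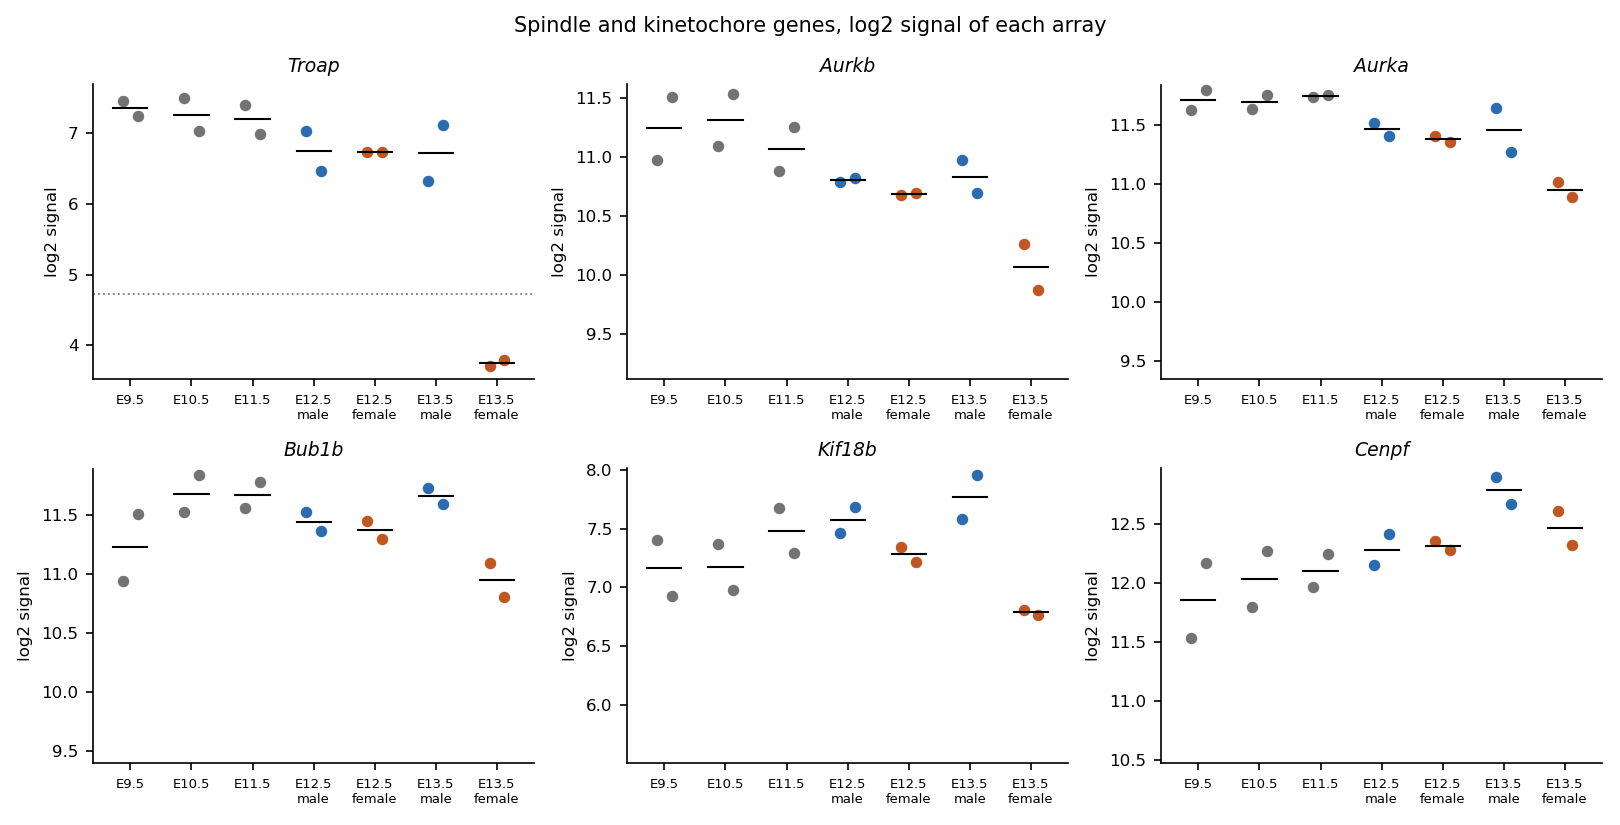
Log2 signal (vertical axis) of each array by group for Troap, Aurkb, Aurka, Bub1b, Kif18b and Cenpf; points are the 2 arrays of a group, black bars their mean, and the dotted line the table median of 4.72 where it falls in the panel. Troap is dim only in E13.5 females, at 3.71 and 3.80, and the E13.5 females are also the lowest group for Aurkb, Aurka and Kif18b.

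In cells sorted in bulk, fewer dividing cells and less RNA per cell cannot be told apart. The calls depended in part on single arrays: Troap, Aurkb, Kifc3 and Kif13b at E13.5 in females against E10.5 passed with any 1 of the 4 arrays left out. Without E13.5 female replicate 2, which had the large Gapdh difference, the female calls of Aurka, Bub1b, Cenpv, Kif27 and Kif5c were lost. Those of Kif16b, Kif1b, Kif27 and Kif5c were lost without E13.5 female replicate 1. The male calls of Cenpf, Cenpv, Kif16b and Kif5c were lost without E13.5 male replicate 1, and those of Cenpf and Cenpv without E13.5 male replicate 2. Fewer of all genes passed without any of these E13.5 arrays too.

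Among the other kinesins, 2 of 30 rose and 1 fell in E13.5 males against E10.5, and 5 of 30 rose and 1 fell in females. These shares are near the 12.7% of all genes in males and 17.8% in females that passed. Kif13b, a motor that carries cargo toward microtubule plus ends, rose in females. It read 8.73 and 8.74 at E9.5, 8.99 and 8.46 at E10.5, 8.91 and 8.87 at E11.5, 8.96 and 9.12 in males at E12.5, 9.88 and 9.96 in females at E12.5, 9.09 and 9.32 in males at E13.5, and 10.06 and 10.12 in females at E13.5. All 4 sexed female arrays lay above all others. The rise against E10.5 was 1.37 (SE 0.21, adjusted p = 0.00111). It was already seen at E12.5 in females against E11.5, at 1.03 (SE 0.21, adjusted p = 0.036), where 1.85% of all genes passed and Kif13b was the 1 gene of the 73. That last call was lost when any 1 of its 4 arrays was left out. The other 3 Kif13b probe sets were dim, and the mean of all its probe sets differed by −0.03 at E13.5 in females against E10.5.

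Kif27, related to the cilium and Hedgehog motor Kif7, read 5.43 and 5.95 in E13.5 males and 6.81 and 6.76 in E13.5 females, against 5.77 and 4.58 at E10.5. The female arrays lay above all others of the gene, and the rise was 1.61 (SE 0.37, adjusted p = 0.0125), a call lost without E10.5 replicate 2 or either E13.5 female array. Kif1b, a motor of mitochondria and synaptic vesicle precursors in neurons, read 7.30 and 7.14 in E13.5 males and 7.89 and 7.19 in E13.5 females, against 6.72 and 6.54 at E10.5. Its rise in females was 0.91 (SE 0.28, adjusted p = 0.0462), and the male difference of 0.59 did not pass. The female call was lost under quantile normalization (0.63, adjusted p = 0.168) and when any array but E13.5 female replicate 2 was left out.

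Kif16b and Kif5c passed as higher in both sexes. Kif16b, which moves early endosomes, read 8.01 and 8.30 at E9.5, 8.31 and 8.46 at E10.5, 8.58 and 8.65 at E11.5, 9.10 and 9.57 in males at E12.5, 8.98 and 8.89 in females at E12.5, 9.65 and 9.46 in males at E13.5, and 9.57 and 9.09 in females at E13.5. Every array from E11.5 on lay above every earlier one. The rise at E13.5 against E10.5 was 1.17 (SE 0.23, adjusted p = 0.00637) in males and 0.95 (adjusted p = 0.0146) in females, and another bright probe set gave 1.18 and 0.98. Kif5c, a heavy chain of conventional kinesin, read 7.94 and 7.59 in E13.5 males and 7.60 and 7.26 in E13.5 females, against 6.43 and 6.23 at E10.5. Its E13.5 arrays lay above the E10.5 arrays by 1.44 (SE 0.31, adjusted p = 0.0118) in males and 1.10 (adjusted p = 0.0324) in females. The female call was lost when any 1 of its 4 arrays was left out, under quantile normalization (0.83, adjusted p = 0.101) and with the mean of all probe sets (0.46, adjusted p = 0.451). The male call was lost without E13.5 male replicate 1 and with the mean of all probe sets (0.90, adjusted p = 0.138). The next Kif5c probe set by mean signal differed by 0.83 in males and 0.25 in females.

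Kifc3, a minus-end-directed motor of cell junctions, fell in both sexes. It read 8.93 and 9.42 at E9.5, 9.69 and 9.59 at E10.5, 9.29 and 9.32 at E11.5, 9.22 and 9.35 in males at E12.5, 9.43 and 9.28 in females at E12.5, 8.64 and 8.57 in males at E13.5, and 8.32 and 8.69 in females at E13.5. All 4 E13.5 arrays lay below all others. The change against E10.5 was −1.04 (SE 0.19, adjusted p = 0.00429) in males and −1.14 (adjusted p = 0.00183) in females. Kifbp, which binds kinesins and blocks their motor, read 11.24 and 11.14 in E13.5 males and 11.37 and 10.76 in E13.5 females, against 11.01 and 10.34 at E10.5, and it did not pass.

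Cenpv, reported at centromeres in human cells, rose in both sexes and was measured by a single probe set. It read 9.46 and 7.88 at E9.5, 8.67 and 8.28 at E10.5, 8.91 and 9.73 at E11.5, 8.48 and 9.63 in males at E12.5, 9.49 and 9.94 in females at E12.5, 9.77 and 10.40 in males at E13.5, and 9.96 and 10.64 in females at E13.5. The replicates were widely spread at E9.5 and E12.5, and the E13.5 arrays were above both E10.5 arrays. The rise was 1.61 (SE 0.42, adjusted p = 0.0298) in males and 1.83 (adjusted p = 0.0121) in females. The male call was lost without E10.5 replicate 2 or either E13.5 male array, and the female call without E10.5 replicate 2 or E13.5 female replicate 2. Cenpj, a centriole protein despite its name, read 9.28 and 9.21 in E13.5 males and 9.23 and 8.92 in E13.5 females, against 8.77 and 9.65 at E10.5, and did not pass.

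**Figure D3:**
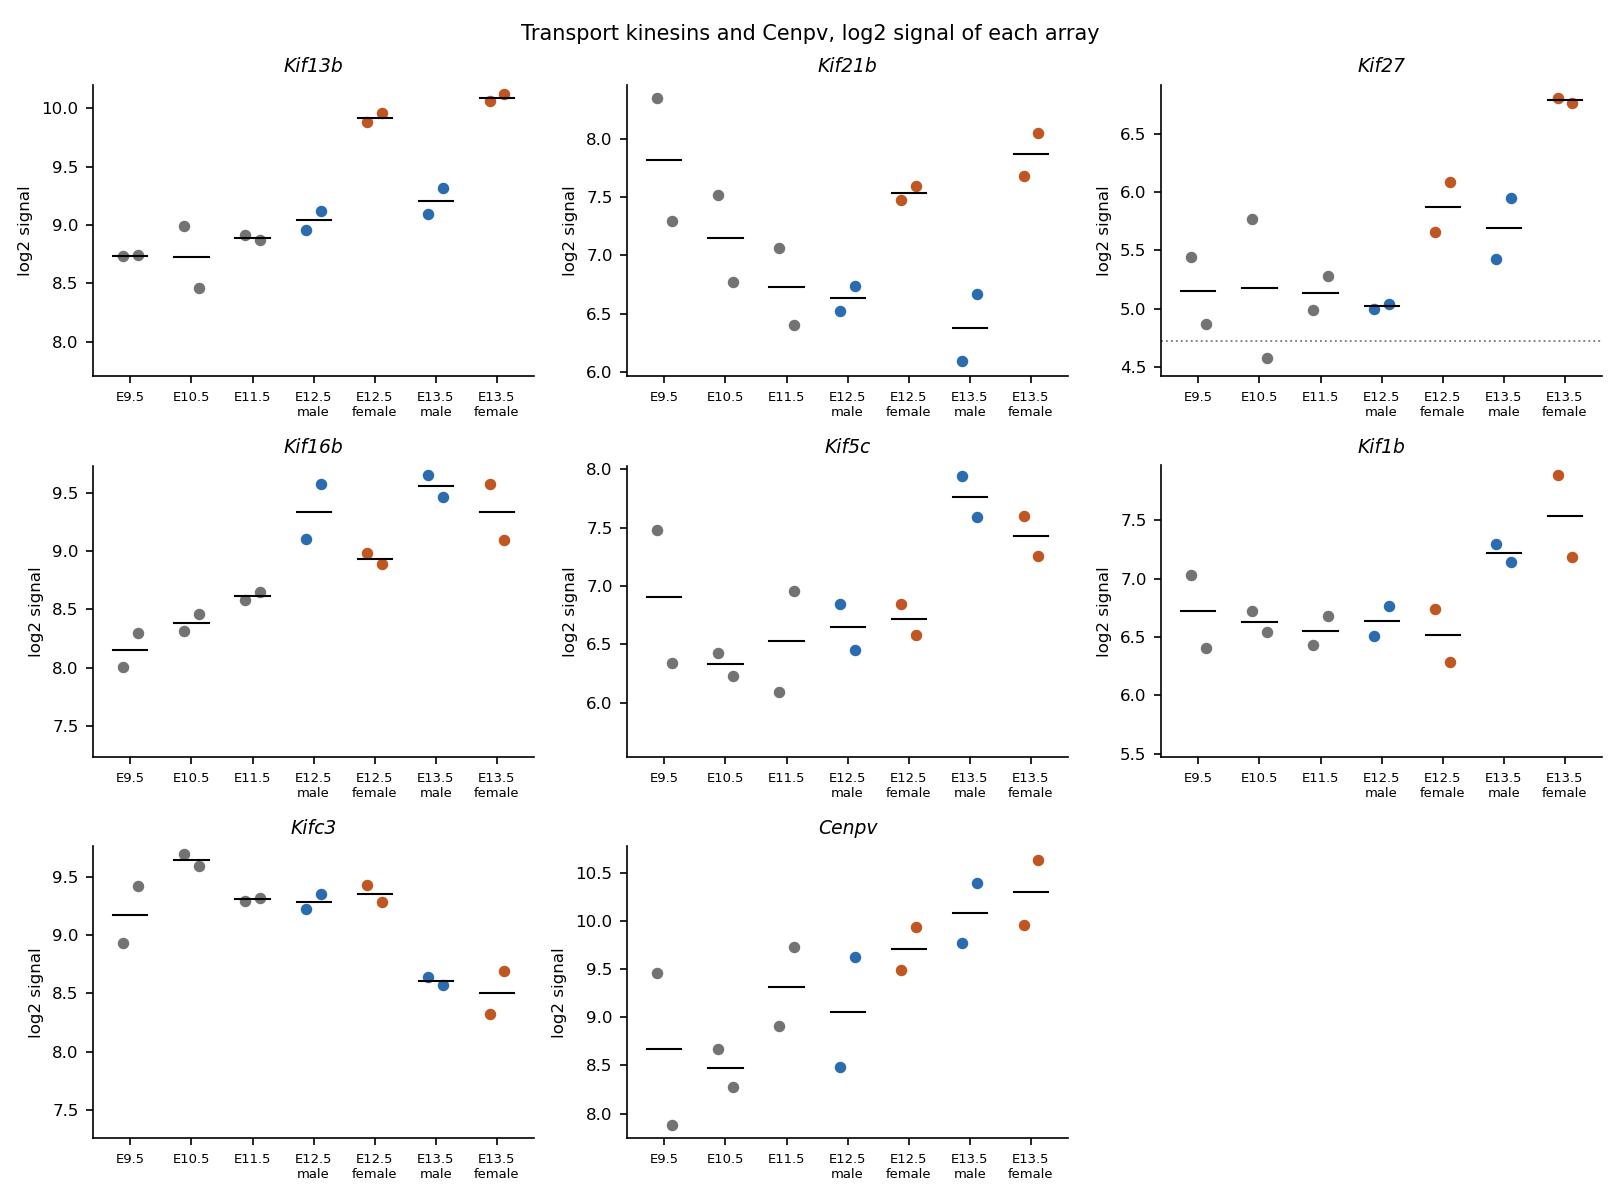
Log2 signal (vertical axis) of each array by group for 7 of the other kinesins and Cenpv. Points are the 2 arrays of a group and black bars their mean. The dotted line is the table median of 4.72 where it falls in the panel. Kif13b is above 9.8 only in the sexed female groups, and Kifc3 is lowest in both E13.5 groups.

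**Figure D4:**
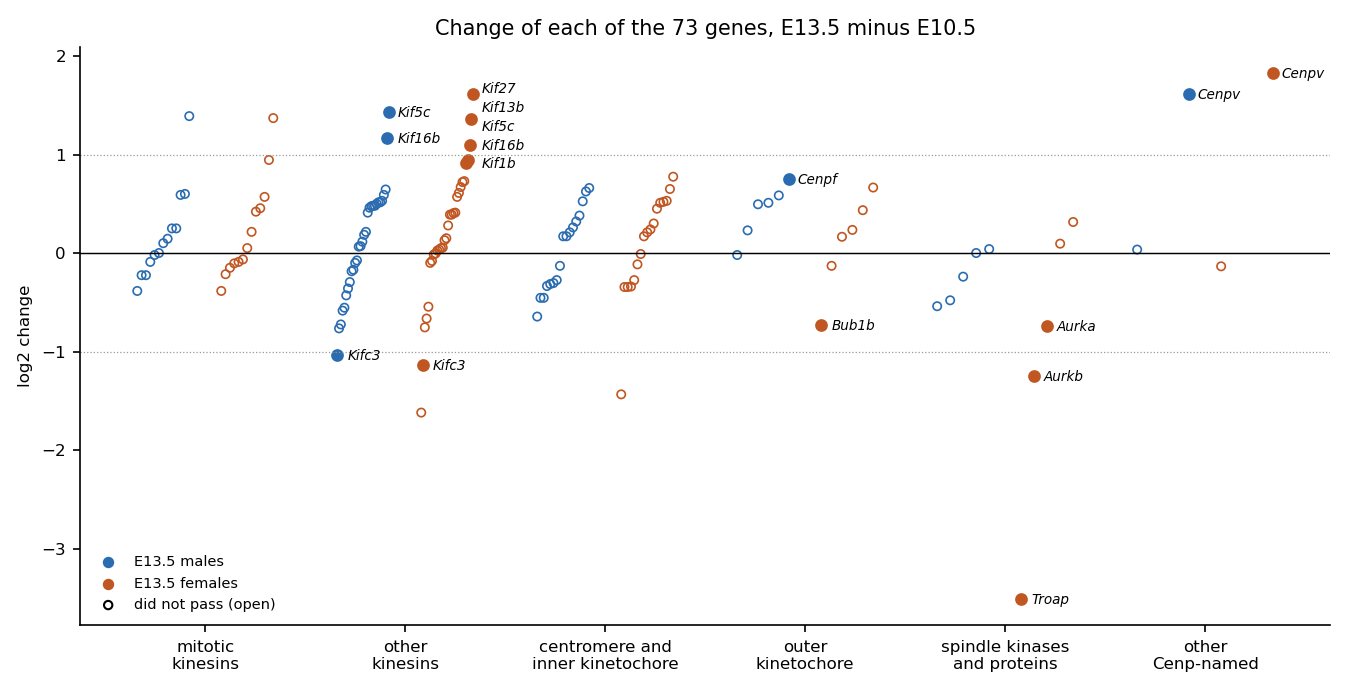
Log2 change at E13.5 against E10.5 (vertical axis) of each of the 73 genes by role, in males (blue) and females (orange); filled points passed in limma and are named, open points did not, and dotted lines mark changes of 1 log2 unit. Filled points are 5 in males and 11 in females, with Troap in females lowest at −3.51.

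Fewer of the 73 genes passed in the step within each sex at the end of the series than against E10.5. At E13.5 against E12.5, 0 of 73 passed in males in limma (11 with an unadjusted p under 0.05), where 2.10% of all genes passed and 14.1% had an unadjusted p under 0.05. In females 2 of 73 passed, Troap and Kifc3, and 15 had an unadjusted p under 0.05, where the shares of all genes were 1.91% and 15.0%. Kifc3 changed by −0.85 (SE 0.19, adjusted p = 0.0496), a call that was lost when any 1 of the 4 arrays was left out. The Troap call was lost without E12.5 female replicate 1, E12.5 female replicate 2 or E13.5 female replicate 1. At E12.5 in males against E11.5, 0 of 73 passed in limma (3 with an unadjusted p under 0.05), where 1% of all genes passed and 9.36% had an unadjusted p under 0.05.

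Males and females at E13.5 differed in 6 of the 73 genes (8.22%), of which 4 were higher and 2 lower in males, where 10.2% of all genes passed (4.17% higher and 5.99% lower). The comparison uses the same E13.5 arrays as those against E10.5. The balance of direction depended on the fit. Fitted to the E13.5 arrays alone, 1 of the 73 was higher and 4 were lower in males, where 482 and 835 of all genes were. With array weights, an alternative added after seeing the data, 4 were higher and 5 lower, where 865 and 1248 of all genes were. Troap was higher in males by 2.97 (SE 0.32, adjusted p = 0.000295), as its values above show. Aurkb was higher in males by 0.77 (SE 0.22, adjusted p = 0.0485), and its other probe set by 0.92. The Aurkb call was lost when any 1 of the 4 E13.5 arrays was left out, and with the replicate number as a block (adjusted p = 0.0601). Bub1b was higher in males by 0.72 (SE 0.18, adjusted p = 0.0295), and its other bright probe set by 0.74, a call that held in 1 of the 4 fits with an array left out. Aurka differed by 0.51 and did not pass (adjusted p = 0.0826).

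Kif18b was the only mitotic kinesin that passed between the sexes at E13.5. This motor, which trims the plus ends of astral microtubules, read 7.40 and 6.93 at E9.5, 7.37 and 6.98 at E10.5, 7.67 and 7.29 at E11.5, 7.46 and 7.68 in males at E12.5, 7.34 and 7.22 in females at E12.5, 7.58 and 7.95 in males at E13.5, and 6.81 and 6.77 in females at E13.5. The E13.5 females were the lowest arrays, and males were higher by 0.98 (SE 0.24, adjusted p = 0.0261), a call lost when any 1 of the 4 E13.5 arrays was left out. Kif23, a motor of the central spindle that helps to form the midbody, leaned the other way. It read 10.60 and 10.15 in E13.5 males and 11.42 and 10.94 in E13.5 females. The difference of −0.81 did not pass in limma (adjusted p = 0.0523). Kif4 leaned that way too, by −0.965, with both E13.5 male arrays below both female arrays, and did not pass. At E12.5 it read 9.14 and 9.20 in males against 10.01 and 9.85 in females.

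Those of the other kinesins that passed were lower in males. Kif13b differed by −0.89 (SE 0.21, adjusted p = 0.0211). That call was lost when any 1 of the 4 E13.5 arrays was left out. It was also lost with the mean of all Kif13b probe sets, most of them dim, where the difference was −0.09. Kif21b, a motor that limits microtubule growth, read 8.35 and 7.29 at E9.5, 7.52 and 6.77 at E10.5, 7.06 and 6.40 at E11.5, 6.52 and 6.74 in males at E12.5, 7.47 and 7.59 in females at E12.5, 6.09 and 6.67 in males at E13.5, and 7.68 and 8.05 in females at E13.5. At both ages the male arrays lay below the female arrays, and at E13.5 the difference was −1.49 (SE 0.33, adjusted p = 0.0161). With the mean of both Kif21b probe sets, the other of them dim, it was −1.02 (adjusted p = 0.233). Of the 6 calls, only that of Troap held whichever 1 of the 4 E13.5 arrays was left out. Fewer of all genes passed in these fits too. The summed neuron markers read 8.79 to 8.84 in E13.5 males (5 of 8 above the table median). In E13.5 females they read 9.23 to 9.60 (6 of 8). These markers went both ways: male minus female, Map2 differed by −2.915, Nefm by −2.58 and Tubb3 by 1.765. No other marker of the 8 passed, and their median difference was 0.03. The gonadal somatic markers summed to 8.70 to 9.04 in E13.5 males and 8.33 to 8.41 in E13.5 females. Their part in these differences was not tested.

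At E12.5, 0 of 73 differed between males and females in limma (8 with an unadjusted p under 0.05), where 2.38% of all genes passed and 12.8% had an unadjusted p under 0.05. Kif13b was nearest, at −0.88 with an adjusted p of 0.0574. The change of the male minus female difference from E12.5 to E13.5 was tested as an interaction, and 0 of 73 passed in limma (4 with an unadjusted p under 0.05), where 0.011% of all genes passed and 7.42% had an unadjusted p under 0.05. For Troap it was 2.96 (SE 0.45, adjusted p = 0.108), so the timing of the sex difference was not established by that test. With array weights, an alternative chosen after seeing the data, its adjusted p was 0.0327.

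**Figure D5:**
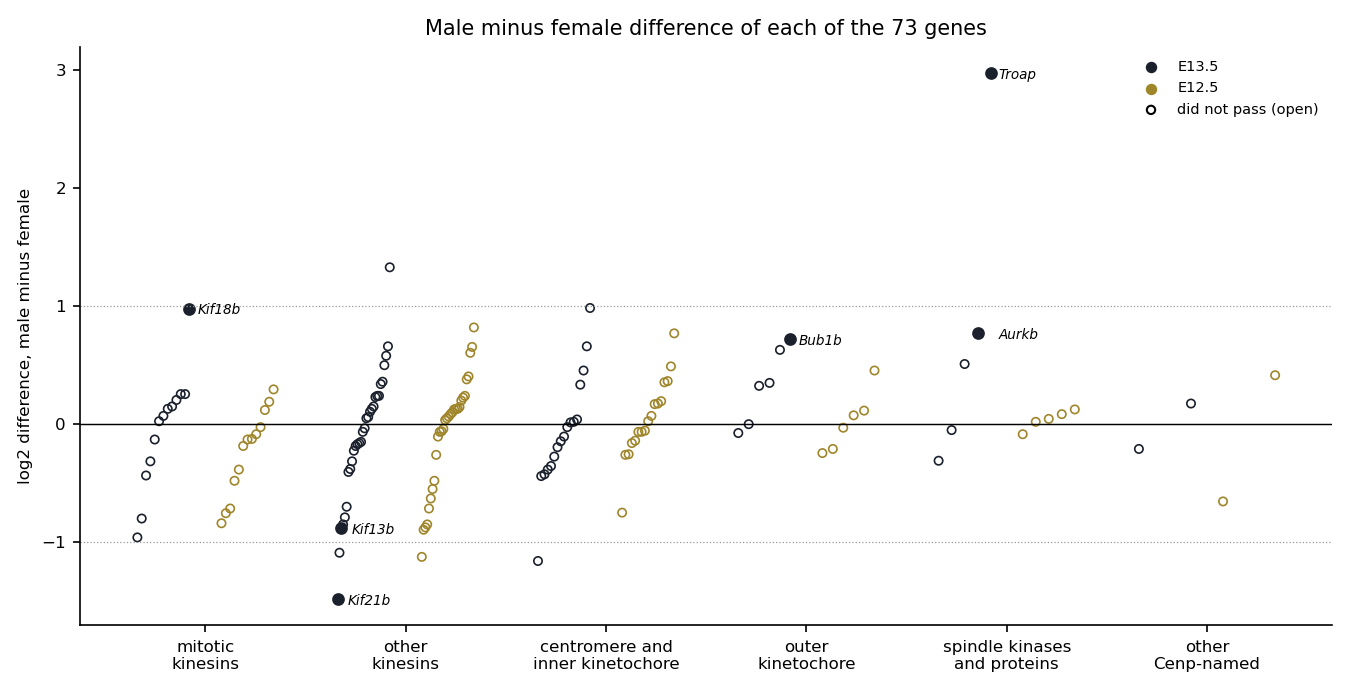
Male minus female difference in log2 signal (vertical axis) of each of the 73 genes by role, at E13.5 (black) and E12.5 (ochre); filled points passed in limma and are named, open points did not. At E13.5, 4 genes are higher and 2 lower in males, with Troap highest at 2.97, and no point is filled at E12.5.

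Across the change of study from E9.5 to E10.5, 2 of the 73 genes passed (1 higher and 1 lower), where 1.06% of all genes passed (0.715% higher and 0.346% lower). Age, strain, study, kit and PCR cycles cannot be told apart here. Kif3a, the kinesin-2 motor that builds cilia, read 9.27 and 9.47 at E10.5, against 8.24 and 8.30 at E9.5, a difference of 1.10 (SE 0.20, adjusted p = 0.0224). Its later arrays all lay at 9.18 or above, and its other 3 probe sets differed by 0.13, 0.87 and 0.20. Kif26b, a kinesin needed for kidney formation, read 5.37 and 4.80 at E10.5, against 7.70 and 6.84 at E9.5, a difference of −2.19 (SE 0.46, adjusted p = 0.0485). The groups did not overlap in either gene. The blood markers summed to 11.31 to 11.73 at E10.5 and 13.68 to 14.59 at E9.5, and their part in this result was not tested. Both calls were lost without E9.5 replicate 1 or E10.5 replicate 2, and the Kif3a call also without E9.5 replicate 2. Fewer of all genes passed without E9.5 replicate 1 or E10.5 replicate 2 as well. Without E10.5 replicate 1, more of the 73 genes and more of all genes passed.

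Other genes of cell division were counted from lists of the same pathways, and their counts at E13.5 against E10.5 stand against 12.7% of all genes in males and 17.8% in females. Of 26 other kinetochore, checkpoint and passenger genes measured, 1 fell in E13.5 males against E10.5, and 3 rose and 3 fell in females, with a median change of −0.02 in males and 0.04 in females. Ska2, part of the complex that tracks microtubule ends, fell by 1.63 in males (adjusted p = 0.00162) and by 1.63 in females (adjusted p = 0.00116). In females Spdl1, which brings dynein to kinetochores, rose by 1.07 (adjusted p = 0.00352), while Zw10, of the same pathway, fell by 1.12 (adjusted p = 0.00227).

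Of 20 mitotic entry and exit regulators, 0 rose and 2 fell in males, and 3 rose and 2 fell in females. Cdc25c, a phosphatase that starts mitosis, fell by 1.13 in males and by 1.44 in females, and Mybl2, a transcription factor of G2 genes, fell by 0.93 in males and by 1.29 in females. Cdc25b, a related phosphatase, rose by 0.90 in females (adjusted p = 0.0142). Of 15 spindle assembly genes none passed in males, and in females Ckap2l rose by 0.97 and Dlgap5 fell by 0.75. Of 8 cytokinesis genes, Arhgef2, a microtubule-bound activator of RhoA, passed in both sexes and fell by 1.47 in males and by 1.64 in females. Of 16 DNA replication genes, 2 fell in males, and 1 rose and 1 fell in females.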

How the data were processed

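Biotin-labelled cRNA of mouse primordial germ cells was hybridized to Affymetrix arrays, per the labels' protocols. The deposited values are log2 signals that the authors normalized over all 14 arrays together, per the series' design text. How the probes were summarized is not stated in the sources used. The range of 0 to 14.04 shows a log2 scale. The number of arrays limits the precision.

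Of 45101 probe sets, 34958 had a single symbol in the platform annotation, 932 several and 9211 none. Probe sets without exactly 1 symbol were left out. The probe set with the highest mean stood for each of 18194 genes, of which 9012 had several, as had 44 of the 73 genes described. All 73 matched RefSeq by Entrez identifier.

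limma 3.58.1 in R 4.3.3 was fitted with 1 mean per group and an intensity trend to the 12 arrays of the sorted cells, and to all 14 for the comparison with E9.5. P-values, two-sided, were Benjamini-Hochberg adjusted over all genes within each comparison. Genes with an adjusted p under 0.05 and a higher group mean above the table median are named, along with 1 or 2 genes of each role picked by mean signal, which does not rank transcript levels. Kif4, Kif11, Kif23, Cenpb, Cenpx, Ndc80, Nuf2 and Plk1 were named after their values were seen. Data for E13.5 against E12.5 females (18194 genes) were simulated with normal noise, and changes were put only into genes with a mean above the median of all gene signals. Of changes of 2 log2 units 86% were recovered, and of changes of 4, 98%. Smaller changes, as most of those called here are, were not simulated. The alternatives were quantile normalization, leaving out dim genes, the mean of all probe sets, a floor, the compared arrays alone, a replicate block and each array left out, and, added after seeing the data, array weights and leaving out both arrays with a large Gapdh difference. The genes, lists and motifs were chosen with earlier results of these data known.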

Additional observations from a re-analysis of the deposited data

Results flagged for a closer look

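Bub1b was lower at E13.5 than at E12.5 on every female array and higher on every male array. The male change minus the female change was 0.645, with an adjusted p of 0.578 in limma (unadjusted p = 0.0282), so the difference between the sexes did not pass. Cenps, a histone-fold protein of the centromere, moved in opposite directions too. It was lower in males, at 7.19 and 7.16 at E13.5 against 8.57 and 8.21 at E12.5, and higher in females, at 8.33 and 8.35 at E13.5 against 7.72 and 8.09 at E12.5. The male change minus the female change was −1.65, with an adjusted p of 0.421. With 2 arrays in each group, such opposite moves can arise by chance. They were looked for only among the 73 genes, so no share of all genes stands beside them. Whether their number exceeds chance was not tested.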

How the results depend on the processing

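Of 27 calls over 11 comparisons, 6 held whichever 1 array was left out, and 25 were lost under at least 1 setting. The exceptions are Troap at E13.5 in females against E10.5 and in males against females. Counts below are of the 73 genes.

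Without 1 array, counts ran from 0 to 0 for E12.5 females against E11.5 (1 with all arrays), 0 to 1 for E13.5 against E12.5 females (2), 6 to 14 for E13.5 females against E10.5 (11), 1 to 6 for E13.5 males against E10.5 (5), 1 to 2 for E13.5 males against females (6) and 0 to 12 for E10.5 against E9.5 (2). With the compared arrays alone they were 0 for E12.5 females against E11.5, 1 for E13.5 against E12.5 females, 2 for E13.5 females and 0 for E13.5 males against E10.5, 2 for E12.5 males against females, and 0 for E10.5 against E9.5, where fewer arrays leave fewer degrees of freedom. With the mean of all probe sets they were 0 for E12.5 females against E11.5, 1 for E13.5 against E12.5 males, 3 for E13.5 males against females and 0 for E10.5 against E9.5, and the Kif13b change in E13.5 females against E10.5 turned to −0.0313, as 3 dim probe sets enter it. With array weights they were 2 for E12.5 females against E11.5, 5 for E13.5 against E12.5 females, 3 for E13.5 against E12.5 males, 3 for E13.5 males against E10.5, 3 for E12.5 males against females, 1 for the change of the sex difference and 0 for E10.5 against E9.5. Without both arrays with a large Gapdh difference they were 1 for E13.5 against E12.5 females, 7 for E13.5 females and 2 for E13.5 males against E10.5, and 1 for E13.5 males against females. Leaving out dim genes gave 1 for E12.5 males against females and 1 for E10.5 against E9.5, and the floor gave 3 for E13.5 males against E10.5 and 1 for E10.5 against E9.5. The cause of these differences was not tested beyond what is said here.

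Correlations of replicate differences ran from −0.19 to 0.276 over 15 pairs of groups. They were highest for E10.5 with E11.5 (0.276), followed by the 2 sexes at E13.5 (0.193). The Gapdh difference was larger in replicate 2 than in replicate 1 in every group from E10.5 on, but not at E9.5. The part of a shared replicate effect in the calls was examined only with the replicate block. The replicate block gave 1 for E13.5 against E12.5 females, 1 for E10.5 against E9.5, 12 for E13.5 females against E10.5, 6 for E13.5 males against E10.5 and 5 for E13.5 males against females, where Aurkb was lost.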

Other observations

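Dynein, the motor that walks toward microtubule minus ends, was measured through 17 dynein and dynactin genes. Of these, 0 were higher and 1 was lower in E13.5 males against E13.5 females, where 10.2% of all genes passed. That gene, Dync1i1, an intermediate chain of cytoplasmic dynein, differed by −4.21 at E13.5 (SE 0.28, adjusted p = 1.96e-05) and by −2.61 at E12.5 (adjusted p = 0.000924). In females it rose by 2.55 at E12.5 against E11.5 (adjusted p = 0.0022). Against E10.5 it fell by 1.17 in E13.5 males (adjusted p = 0.019) and rose by 3.04 in E13.5 females (adjusted p = 6.8e-05). Dync1h1, the dynein heavy chain, rose by 0.71 in males and by 0.75 in females against E10.5.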
